A study of Mus musculus with 17 samples.

Results

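The matrix metalloproteinases (MMPs), the ADAMTS proteases and the tissue inhibitors of metalloproteinases (TIMPs) were followed in cells of the mouse embryonic aorta as 44 of the 19937 genes measured on 17 arrays. The genes were taken by name, as every symbol made of Mmp or Adamts and a number, with the lettered Mmp forms, and Timp1 to Timp4. This gave 22 Mmp, 18 Adamts and 4 Timp genes, each read from its brightest probe set among those annotated to 1 gene. Adamts2 and Mmp15 also carry such names and were not analysed here.

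The cells came from pools of aorta-gonad-mesonephros (AGM) regions at E11.5, were gated CD31+CD45-, and carry no named mutation or strain in the labels. Kit- and Kit+ cells were taken directly from the embryo, with 3 arrays each. For the other groups the CD31+CD45-Ter119- cells spent 2 h on OP9 stroma made to express Jag1 (OP9-Jag1) or Dll4 (OP9-Dll4), in medium with a cytokine mix, before they were divided by Kit into Kit-J (2 arrays), Kit+J (3), Kit-D (3) and Kit+D (3). The question behind these groups was how each Notch ligand alters the endothelial (Kit-) and the blood-forming (Kit+) population. Replicates were described as independent sorts. The fresh arrays belong to an earlier deposit, so in any comparison of cultured with fresh cells the culture cannot be told apart from the set of arrays. OP9 is itself a mouse stromal line, and these arrays do not distinguish its transcripts from those of the embryo.

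MMPs are zinc proteases that cut collagens, laminins and other matrix proteins, either secreted or, in the membrane-type forms, held at the cell surface. ADAMTS proteases are secreted relatives, several of which cleave large proteoglycans such as versican. TIMPs bind and block the active site of MMPs, and TIMP3 also that of several ADAMTS proteases. In embryonic vessels such enzymes remodel the basement membrane and the surrounding matrix while endothelial cells sprout, migrate or leave the vessel wall.

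Signals are log2 values from RMA, a method that corrects background and normalises arrays to each other, and array medians lay between 5.22 and 5.38. To judge dim genes, the 95th percentile of the mean signal of 1015 olfactory receptor genes, 5.03, was used as a dim reference. All 12 endothelial markers were measured, and their mean ran from 8.58 to 8.73 on the Kit- arrays, 5.79 to 6.11 on Kit+, 6.37 to 6.75 on Kit-J, 8.88 to 9.37 on Kit-D, 5.55 to 5.95 on Kit+J and 5.90 to 7.05 on Kit+D. The endothelial list was thus low on the Kit-J arrays in spite of their Kit- label. For Kit itself the signal was 8.13 to 8.29 in Kit-, 9.44 to 9.55 in Kit+, 8.50 and 9.08 in Kit-J, and in Kit-D between 7.05 and 8.02. It ran from 9.02 to 9.93 in Kit+J and, lower, from 8.51 to 8.99 in Kit+D. On 4 arrays, both Kit-J arrays, Kit-D replicate 3 and Kit+D replicate 3, a description line names the opposite Kit population, and the groups used here follow the titles and sources. The mean of 12 germ cell markers was 7.77 to 7.85 in Kit-, 8.73 to 9.06 in Kit+, 8.63 and 8.82 in Kit-J, and in Kit-D between 5.96 and 7.21. In such bulk samples fewer cells of one type and less RNA per cell cannot be told apart.

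Most of the family was dim or flat, and the signal that moved sat in a small set of genes. The mean over all arrays reached the dim reference for 20 of the 44 genes, and 11 genes were below it on all arrays. A gene was called at a limma adjusted p under 0.05 over all 19937 genes, and 11 of the 44 were called in at least 1 of 10 comparisons, beside 19.5% of all genes. These were Mmp2, Mmp3, Mmp13, Mmp14, Mmp16, Mmp28, Adamts1, Adamts9, Timp2, Timp3 and Timp4. By role, calls fell on 3 of 4 TIMPs, 2 of 5 membrane-type MMPs, 2 of 7 proteoglycanase ADAMTS genes, 1 of 2 gelatinases, 1 of 4 collagenases, 1 of 4 stromelysins and matrilysin, and 1 of 7 other MMPs. None of the 2 procollagen N-proteinases and none of the 9 other ADAMTS genes was called. In the map of all genes by array, Mmp2, Mmp14, Adamts1, Adamts9 and Timp3 form rows of low values in Kit+, Kit-J and Kit+J beside Kit- and Kit-D, a pattern that Mmp3, Mmp13 and Timp4 did not share.

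**Figure D1:**
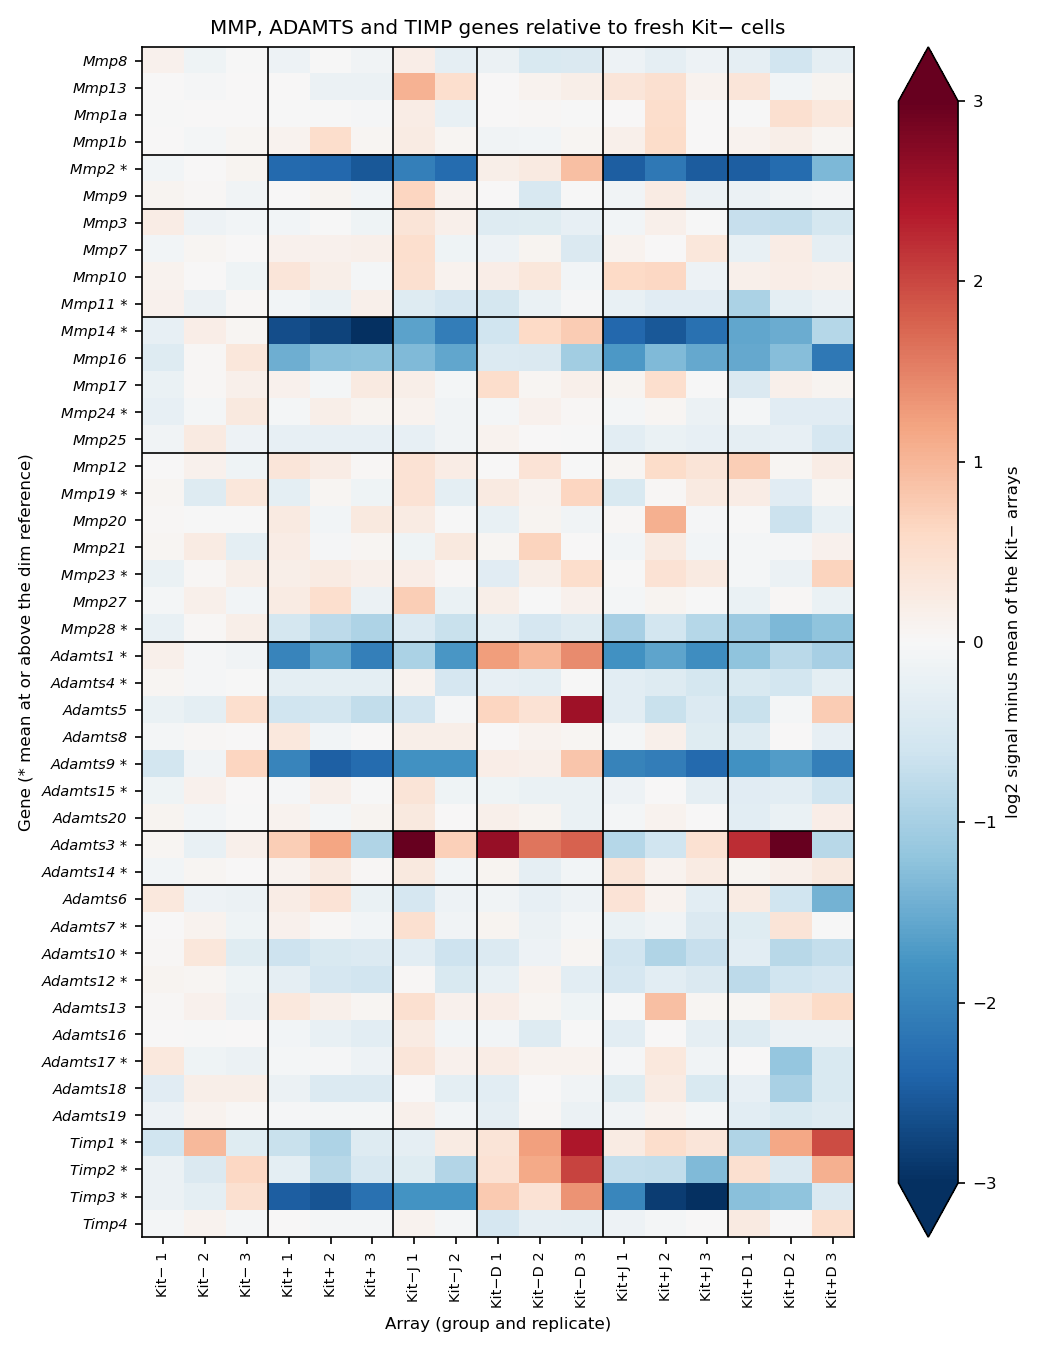
Each row is 1 of the 44 genes, grouped by role between the black lines, each column is 1 array, and colour gives the log2 signal minus the mean of the 3 Kit- arrays, on a scale that ends at 3 on either side. Mmp2, Mmp14, Adamts1, Adamts9 and Timp3 are blue in Kit+, Kit-J, Kit+J and, less so for Mmp14, Adamts1 and Timp3, Kit+D, and stay near 0 or red in Kit-D; a star marks a mean at or above the dim reference.

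Promoter sequence is printed for 3 of the genes that moved most and for 2 dim genes of the chromosome 9 cluster. These genes were picked, so a contrast between their windows is not a result about the family. RefSeq windows (GRCm38.p6) of the 250 bases before the most upstream annotated start were given for 30 of the 44 genes. Capitals mark matches on either strand to the AP-1 motif TGANTCA or to the GC box GGGCGG, and each window is printed 5' to 3' on the gene's strand. The first 3 windows belong to bright genes that fell in Kit+ and Kit-J cells, at chr16:85803114-85803363 (minus strand), chr14:54431348-54431597 (plus strand) and chr10:86300162-86300411 (plus strand), and the last 2 to dim genes, at chr9:7445572-7445821 and chr9:7272264-7272513 (both plus strand).
Adamts1: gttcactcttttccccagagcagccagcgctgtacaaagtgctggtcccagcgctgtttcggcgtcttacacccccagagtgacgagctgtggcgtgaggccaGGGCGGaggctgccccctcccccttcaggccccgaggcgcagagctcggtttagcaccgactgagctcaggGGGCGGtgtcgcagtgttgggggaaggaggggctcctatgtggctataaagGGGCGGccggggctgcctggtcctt
Mmp14: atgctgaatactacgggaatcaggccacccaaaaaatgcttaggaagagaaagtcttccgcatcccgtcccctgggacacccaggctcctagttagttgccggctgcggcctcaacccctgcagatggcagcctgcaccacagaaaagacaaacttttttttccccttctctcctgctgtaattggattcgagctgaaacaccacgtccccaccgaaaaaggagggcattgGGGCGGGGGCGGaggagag
Timp3: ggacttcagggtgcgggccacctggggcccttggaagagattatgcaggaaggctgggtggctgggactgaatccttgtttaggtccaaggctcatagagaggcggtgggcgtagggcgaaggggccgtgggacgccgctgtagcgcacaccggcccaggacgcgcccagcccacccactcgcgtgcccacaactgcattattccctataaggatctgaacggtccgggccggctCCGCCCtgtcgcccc
Mmp3: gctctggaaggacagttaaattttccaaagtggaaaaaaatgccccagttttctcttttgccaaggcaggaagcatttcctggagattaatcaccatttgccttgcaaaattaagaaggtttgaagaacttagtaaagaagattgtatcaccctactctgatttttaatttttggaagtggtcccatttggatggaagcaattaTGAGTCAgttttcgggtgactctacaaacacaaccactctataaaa
Mmp13: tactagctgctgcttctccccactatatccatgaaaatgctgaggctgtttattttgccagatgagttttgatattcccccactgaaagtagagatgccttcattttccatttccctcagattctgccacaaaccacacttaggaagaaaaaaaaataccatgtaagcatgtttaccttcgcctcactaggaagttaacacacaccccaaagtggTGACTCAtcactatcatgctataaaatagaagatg

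On this build Adamts1 itself lies on chromosome 16 (85793827 to 85803113), Mmp14 on chromosome 14 (54431598 to 54442456) and Timp3 on chromosome 10 (86300412 to 86349505). Mmp2 lies on chromosome 8 (92827290 to 92853421), Adamts9 on chromosome 6 (92772699 to 92944450) and Mmp16 on chromosome 4 (17853072 to 18117479). The Adamts1, Mmp14 and Timp3 windows held 65.6%, 55.2% and 65.6% G and C, against a median of 52% over 27025 promoters. They carried 3, 2 and 1 GC boxes, the box of Timp3 lying on the other strand, and no AP-1 match. Windows of Mmp3 and Mmp13 held 37.6% and 40.4% G and C and 1 AP-1 match each, which began 46 and 35 bases before the start. The AP-1 motif, bound by Fos and Jun proteins, stood in 6.85% of all promoters and in 7 of the 30 family windows, those of Mmp1a, Mmp1b, Mmp3, Mmp7, Mmp10, Mmp13 and Mmp20. All 7 are neighbours on chromosome 9 and related in sequence. GC boxes stood in 33% of all promoters and in 14 of the 30, called and uncalled genes among them. These were Adamts1, Adamts3, Adamts9, Adamts14, Adamts18, Adamts20, Mmp11, Mmp14, Mmp24, Mmp25, Mmp28, Timp1, Timp2 and Timp3. The core TGGGAA of the Notch effector RBPJ stood in 21.5% of all promoters and in 4 of the 30, Adamts13, Adamts14, Mmp28 and Timp1. In the 5 printed windows no match of one motif overlapped a match of another.

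In fresh cells the comparison of Kit+ with Kit- asked how blood-forming cells differ from the endothelium. It called 7 of the 44 genes (15.9%), all lower in Kit+, against 3.23% of all genes in either direction, 0.562% higher and 2.67% lower. These were the gelatinase Mmp2, the membrane-type Mmp14 and Mmp16, the proteoglycanases Adamts1 and Adamts9, the inhibitor Timp3, and Mmp28. Over all 44 genes the median difference was -0.05, beside 0.06 over all genes tested.

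Mmp2 encodes gelatinase A, which degrades basement membrane collagen. On the 3 Kit- arrays its signal was 8.29, 8.38 and 8.45, and on the 3 Kit+ arrays 6.05, 6.02 and 5.82. The groups lay far apart, and the mean was 5.3-fold lower in Kit+ (log2 fold change -2.41 ± 0.25 SE, limma adjusted p = 4.55e-05). Mmp14 encodes MT1-MMP, the surface protease that activates pro-MMP2. Its signal was 7.79, 8.24 and 8.10 in Kit- and 5.38, 5.27 and 5.04 in Kit+, close to the dim reference on all Kit+ arrays. This was the largest fall in the family, 7.04-fold (-2.81 ± 0.30, limma adjusted p = 4.58e-05). Mmp16 encodes MT3-MMP, a related membrane-type protease. Signals of 5.65, 6.07 and 6.38 in Kit- stood above 4.56, 4.78 and 4.80 in Kit+, which lay under the dim reference, with a log2 fold change of -1.32 ± 0.24 (limma adjusted p = 0.00426). Mmp28, or epilysin, gave 5.67, 5.93 and 6.06 in Kit- and 5.35, 5.11 and 4.95 in Kit+, a smaller step of -0.75 ± 0.16 (limma adjusted p = 0.0146).

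Adamts1 and Adamts9 both encode secreted proteases that cut versican and related proteoglycans. Adamts1 gave 7.06, 6.87 and 6.82 in Kit- and 4.94, 5.36 and 4.86 in Kit+. Adamts9 gave 7.28, 7.72 and 8.46 in Kit- and 5.85, 5.37 and 5.52 in Kit+. For neither gene did the groups overlap, and the log2 fold changes were -1.86 ± 0.20 and -2.24 ± 0.26 (limma adjusted p = 5.68e-05 and 8.57e-05). Timp3 encodes the inhibitor that binds tightly to the matrix and blocks many MMPs and ADAMTS proteases. It gave 7.97, 7.84 and 8.62 in Kit- against 5.67, 5.55 and 5.91 in Kit+, a difference of -2.44 ± 0.32 (limma adjusted p = 0.000245). The other TIMPs were not called here: Timp1 averaged 5.63 ± 0.843 in Kit- and 4.97 ± 0.263 in Kit+ (SD, n = 3 each), Timp2 5.57 ± 0.556 and 5.04 ± 0.279, and Timp4 4.16 ± 0.0948 and 4.13 ± 0.0366.

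The endothelial list moved with these genes, with 11 of 12 markers called lower and a median of -2.06. Among 16 stromal markers 4 were called lower (median -0.91), and among 12 germ cell markers 2 were called higher (median 1.05). Lower calls also fell on 2 of 6 erythroid and 1 of 16 myeloid markers (median -1.21 and -0.64). Their part in the family's falls was not tested. Mmp28 alone lost its call without 1 array: the limma adjusted p was 0.062 without Kit- replicate 2, 0.08 without Kit- replicate 3, 0.0595 without Kit+ replicate 2 and 0.0854 without Kit+ replicate 3. It was also lost with the replicate number as a block (0.0715).

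**Figure D2:**
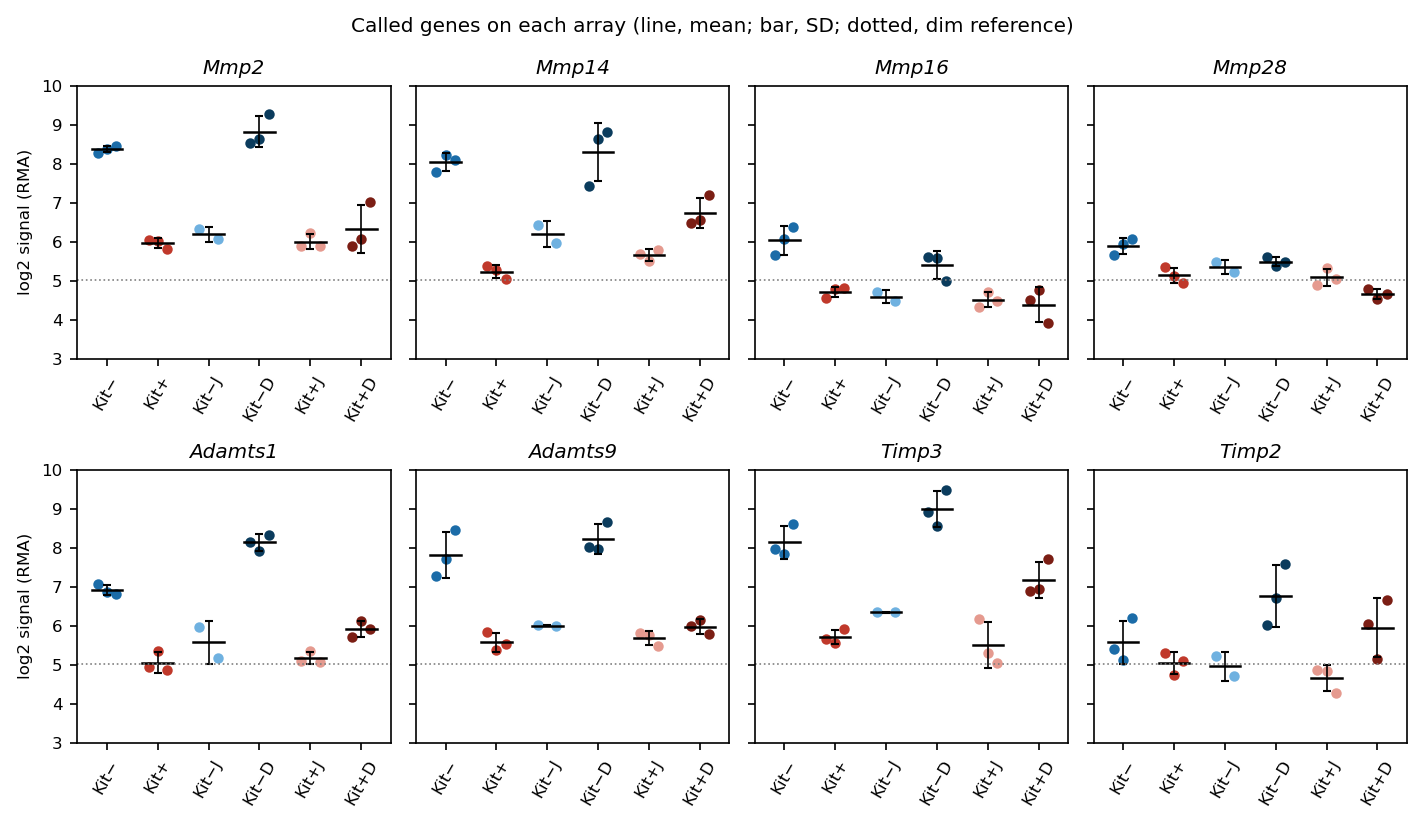
Points are single arrays for 8 called genes, with the group on the x axis and the RMA log2 signal on the y axis; the line is the group mean, the bar its SD (n = 3, and 2 in Kit-J) and the dotted line the dim reference. For Mmp2, Adamts1, Adamts9 and Timp3 the Kit- and Kit-D points lie above those of Kit+, Kit-J and Kit+J, and in Timp3 the Kit+D points, 6.88 to 7.71, lie between.

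After 2 h on OP9-Jag1 the Kit- cells had low signals for 6 of these genes. Kit-J against Kit- called 7 of 44 genes, 1 higher and 6 lower, against 2.14% of all genes in either direction, 0.251% higher and 1.89% lower. Mmp2, Mmp14, Mmp16, Adamts1, Adamts9 and Timp3 were lower, and the dim collagenase Mmp13 was higher. The median over the family was 0.05, beside 0.09 over all genes.

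The gelatinase Mmp2 read 6.33 and 6.06 on the 2 Kit-J arrays, more than 1 log2 unit below all Kit- arrays (-2.18 ± 0.28, limma adjusted p = 0.000713). Its activator Mmp14 read 6.44 and 5.97, and Mmp16 4.70 and 4.47. Both differed from Kit- by more than the spread, by -1.84 ± 0.33 and -1.44 ± 0.27 (limma adjusted p = 0.00806 and 0.00907). Adamts1 read 5.96 and 5.18, so that its 2 arrays differed by more than those of Kit- did. Adamts9 read 6.01 and 6.0, and Timp3 6.36 and 6.34, with little spread. The log2 fold changes were -1.35 ± 0.23 for Adamts1, -1.81 ± 0.29 for Adamts9 and -1.80 ± 0.35 for Timp3 (limma adjusted p = 0.0049, 0.00324 and 0.0129). Mmp28, at 5.48 and 5.23, missed the threshold (-0.54 ± 0.18, limma adjusted p = 0.179).

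In this comparison 10 of 12 endothelial markers were called lower (median -1.62), 1 of 16 stromal and 2 of 6 erythroid markers were called lower (median -0.58 and -1.32) and 1 of 12 germ cell markers higher (median 0.80), and their part was not tested. Both Kit-J arrays are among those with a conflicting description line, so no value without them exists. Without Kit-J replicate 1 only 3 of the calls were left, those of Mmp2, Mmp14 and Adamts1, while the estimates for Adamts9, Mmp16 and Timp3 were -1.82, -1.56 and -1.81 (limma adjusted p = 0.0523, 0.0653 and 0.124). Without Kit- replicate 3 Timp3 stood at -1.56 (0.0637). Fitted on the compared groups alone, Adamts1 and Adamts9 missed the threshold (0.0585 and 0.0547).

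In Kit- cells from OP9-Dll4 the group means of 5 of these 6 genes lay above those of fresh Kit- cells, and that of Mmp16 below, but of the 6 the test called Adamts1 alone. Kit-D against Kit- called 1 of 44 genes, against 0.171% of all genes in either direction, 0.145% higher and 0.0251% lower, and that gene was Adamts1. It rose from 7.06, 6.87 and 6.82 in Kit- to 8.16, 7.92 and 8.34 in Kit-D, with no overlap, by 2.34-fold (1.23 ± 0.20, limma adjusted p = 0.033). For the other bright genes of the set no change was called: Mmp2 read 8.54, 8.65 and 9.28, Mmp14 7.44, 8.63 and 8.81, Adamts9 8.02, 7.97 and 8.66, and Timp3 8.92, 8.57 and 9.48. Their log2 differences from Kit- were 0.45 ± 0.25, 0.25 ± 0.30, 0.40 ± 0.26 and 0.85 ± 0.32 (limma adjusted p = 0.552, 0.817, 0.618 and 0.316). The Adamts9 value is that of its brightest probe set. Over its 6 probe sets the difference ran from -0.07 to 1.36 and was above 0 in 5. Mmp16, at 5.62, 5.59 and 5.00, lay below the lowest Kit- array (-0.63 ± 0.24, limma adjusted p = 0.327). None of the 12 endothelial markers was called (median 0.33), while 2 of 16 myeloid markers were called lower, Clec7a and Ccr2 (median -1.01), and no germ cell marker was called (median -0.85). Their part was not tested. The Adamts1 call was the least steady of its calls: without Kit- replicates 1, 2 or 3 or Kit-D replicate 3 the limma adjusted p was 0.0862, 0.109, 0.119 and 0.191, and it was 0.105 with the replicate block and 0.0874 when scaled to housekeeping genes.

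Set directly against each other, the Kit- cells on the 2 stromas differed in 8 of 44 genes (18.2%), 2 higher and 6 lower in Kit-J, against 9.37% of all genes in either direction, 3.3% higher and 6.07% lower. Adamts1 (-2.57 ± 0.23), Adamts9 (-2.21 ± 0.29), Mmp2 (-2.63 ± 0.28), Mmp14 (-2.09 ± 0.33) and Timp3 (-2.65 ± 0.35) were lower on OP9-Jag1, with limma adjusted p from 1.65e-05 for Adamts1 to 0.00139 for Mmp14. Timp2, the inhibitor that joins MMP14 and pro-MMP2 in the activating complex, was also lower, with 5.22 and 4.70 in Kit-J against 6.01, 6.71 and 7.59 in Kit-D (-1.81 ± 0.46, limma adjusted p = 0.0251). Mmp3 and Mmp13 were higher in Kit-J, at signals under the dim reference. The median was -0.01 over the family and 0.11 over all genes.

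As this comparison and the one with fresh cells share the Kit-J arrays, their values stand side by side without being independent. Endothelial markers were called lower in 11 of 12 cases (median -2.12), stromal markers in 3 of 16 (median -1.07) and erythroid markers in 3 of 6 (median -1.49), and germ cell markers were called higher in 8 of 12 (median 2.39), and their part was not tested. The falls of Mmp2, Mmp14, Adamts1, Adamts9 and Timp3 kept their call in all alternatives. Timp2 lost it without Kit-J replicate 1 (limma adjusted p = 0.0982), Kit-J replicate 2 (0.0928), Kit-D replicate 2 (0.0592) or Kit-D replicate 3 (0.096). Of the 8 calls 5 were left when replicate 1 of Kit-J or replicate 2 of Kit-D was dropped, and 5 with the compared groups alone.

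How often 2 groups lay fully apart, array by array, was also counted, beside the share of all genes. For Kit+ with Kit- the number of members whose groups did not overlap was 14 of 44 (26.5% of all genes), for Kit-J with Kit- it was 14 (32.5%), and for Kit-D with Kit- it was 9 (25.8%). The counts were 16 in Kit-J against Kit-D (47.8%), 15 in Kit+D against Kit-D (32%) and 9 in Kit+J against Kit-J (20%). Between Kit+ groups they were 7 in Kit+J against Kit+ (11.7%), 10 in Kit+J against Kit+D (17.1%) and 9 in Kit+D against Kit+ (22.1%).

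**Figure D3:**
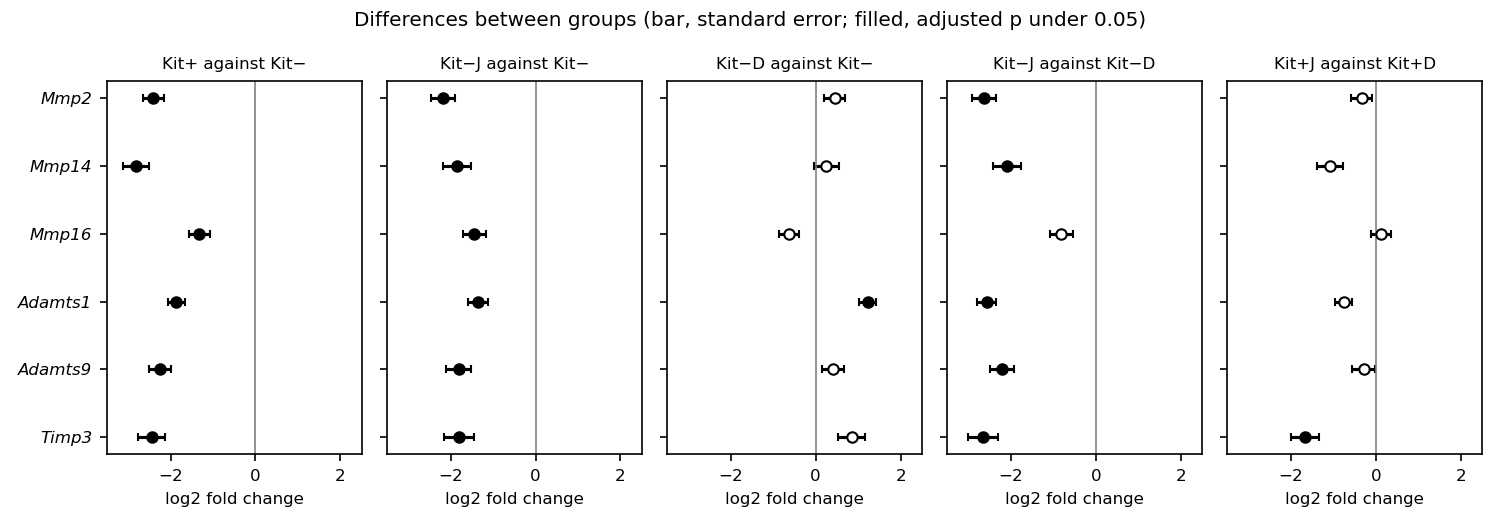
Log2 fold changes of 6 genes in 5 comparisons, with the SE as a bar and filled points for a limma adjusted p under 0.05. All 6 points lie left of 0 for Kit+ and for Kit-J against Kit-, while for Kit-D against Kit- only Adamts1, at 1.23, is filled; for Kit+J against Kit+D only Timp3, at -1.67, is filled.

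Fewer members were called between the Kit+ groups. Kit+J against Kit+ called none of the 44 genes with limma, against 0.0201% of all genes, and 1 of the 44 had an unadjusted p under 0.05, against 6.67% of all genes. For Mmp2 the arrays read 5.90, 6.23 and 5.88, and for Adamts1 5.09, 5.34 and 5.06. For Adamts9 they read 5.82, 5.75 and 5.49, all within or near the range of fresh Kit+ cells. Mmp14 read 5.68, 5.51 and 5.80, above the 3 Kit+ arrays, but missed the threshold (0.44 ± 0.30, limma adjusted p = 0.908).

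Kit+D against Kit+ called 3 of 44 genes, 2 higher and 1 lower, against 1.42% of all genes, 1.04% higher and 0.381% lower. Mmp14 read 6.48, 6.56 and 7.19 on Kit+D arrays and was 2.86-fold higher than in Kit+ (1.52 ± 0.30, limma adjusted p = 0.0257). Timp3 read 6.88, 6.94 and 7.71 and was 2.76-fold higher (1.47 ± 0.32, limma adjusted p = 0.0382). The protease and the inhibitor thus rose together, both to signals between those of Kit+ and Kit-. Mmp3 was lower at a dim signal (-0.57 ± 0.13, limma adjusted p = 0.0462). Adamts1, at 5.71, 6.11 and 5.92, lay above all Kit+ arrays and just missed the threshold (0.86 ± 0.20, limma adjusted p = 0.0513). Markers of other cell types moved as well. Of the 6 erythroid markers 2 were called higher (median 1.52), the embryonic globins Hbb-y, at 11.39, 11.32 and 10.37 in Kit+D against 6.15 to 7.30 in Kit+, and Hba-x, at 10.26, 10.42 and 9.21 against 5.45 to 5.76. The mean of the endothelial markers was 5.90, 6.95 and 7.05 on the Kit+D arrays, with 1 of 12, Kdr, called higher (median 0.66). The part of these markers was not tested. None of the 3 calls was left without Kit+ replicate 1, 2 or 3 or without Kit+D replicate 2: the limma adjusted p of Mmp14 was 0.0754, 0.082, 0.0927 and 0.075, and that of Timp3 0.114, 0.13, 0.0858 and 0.0838. Timp3 was also lost without Kit- replicate 1 (0.0525), Kit-D replicate 1 (0.0552) or Kit+D replicate 3 (0.0648). Without Kit+D replicate 1 there were 5 calls, among them Adamts1, Adamts6 and Timp1, and without Kit-D replicate 1 there was 1, Mmp14. With the replicate block there were also none (Mmp14 0.0546, Timp3 0.0762).

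Between the 2 stromas the Kit+ cells differed in 2 of 44 genes, 1 higher and 1 lower in Kit+J, against 2.25% of all genes in either direction, 0.577% higher and 1.68% lower. Timp3 was lower in Kit+J, with 6.18, 5.30 and 5.05, than in Kit+D (-1.67 ± 0.32, limma adjusted p = 0.0174). Mmp3 was higher in Kit+J (0.67 ± 0.13, limma adjusted p = 0.0195), again under the dim reference. Mmp14 and Adamts1 did not pass the threshold (-1.08 ± 0.30 and -0.75 ± 0.20, limma adjusted p = 0.0721 and 0.0696). Of the endothelial markers 3 of 12, Tek, Emcn and Egfl7, were called lower in Kit+J (median -0.69), and of the erythroid markers 2 of 6, Hbb-y and Hba-x (median -1.91), and their part was not tested. Both calls were lost without Kit+J replicate 2 (Timp3 0.0548, Mmp3 0.0563), Timp3 without Kit+J replicate 3 (0.0545) and Mmp3 without Kit+D replicate 2 (0.0745).

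Whether the ligand difference itself differed between Kit- and Kit+ cells was tested as a difference of differences, the Kit-J minus Kit-D value less the Kit+J minus Kit+D value. It called 3 of 44 genes, all negative, against 1.98% of all genes in either direction, 0.622% higher and 1.36% lower. For Mmp2 the ligand difference was -2.63 in Kit- cells and -0.33 in Kit+ cells, and the difference between them -2.30 ± 0.38 (limma adjusted p = 0.0108). For Adamts9 the values were -2.21 and -0.29, with a difference of -1.92 ± 0.39 (limma adjusted p = 0.0237). These are values of its brightest probe set. Over its 6 probe sets the ligand difference ran from -3.90 to -0.82 in Kit- cells and from -1.19 to 0.17 in Kit+ cells. For Adamts1 the values were -2.57 and -0.75, with a difference of -1.83 ± 0.30 (limma adjusted p = 0.0114). On average the Kit-J and Kit-D arrays thus lay further apart than the Kit+J and Kit+D arrays for Mmp2, Adamts9 and Adamts1. In Kit+J, Adamts1 read 5.06 to 5.34, near the dim reference, so the size of its difference there is uncertain. Both Kit-J arrays, Kit-D replicate 3 and Kit+D replicate 3 carry the conflicting description line, whose part was not tested. For Mmp14 and Timp3 the difference of -1.01 ± 0.45 and -0.98 ± 0.47 missed the threshold (limma adjusted p = 0.271 and 0.318), so a difference between the stromas that depended on the Kit gate was not shown for them. In the same test 5 of 12 endothelial markers were called lower (median -1.63) and no germ cell marker was called (median 1.61), and their part was not tested. On the compared groups alone the calls of Mmp2 and Adamts1 were lost (limma adjusted p = 0.0725 and 0.0645). With housekeeping scaling those of Adamts1 and Adamts9 were lost (limma adjusted p = 0.0508 and 0.0513). The Adamts9 call was lost without Kit-J replicate 1 (0.0926) or Kit-D replicate 3 (0.0617) and with the replicate block (0.0779). Leaving out replicates 1 and 3 of Kit+D with replicate 3 of Kit-D kept 1 Kit+D array. The calls of Adamts1 and Adamts9 were then lost, with a difference of -1.53 for each.

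The Kit gates were also compared on the same stroma, with calls on OP9-Dll4 and none on OP9-Jag1. Kit+J against Kit-J called none of the 44 genes with limma, against 0.0903% of all genes in either direction, 0.0552% higher and 0.0351% lower, and 3 of the 44 had an unadjusted p under 0.05, against 10.7% of all genes. Without Kit-J replicate 2, 1 gene was called, Adamts3. For Mmp2 the Kit+J arrays lay at 5.88 to 6.23 and the Kit-J arrays at 6.06 and 6.33, and for Adamts1 at 5.06 to 5.34 and at 5.18 and 5.96, so that both pairs of groups overlapped. Mmp14 lay at 5.51 to 5.80 in Kit+J and at 5.97 and 6.44 in Kit-J. Adamts9 lay at 5.49 to 5.82 and at 6.0 and 6.01, and Timp3 at 5.05 to 6.18 and at 6.34 and 6.36. For these genes the groups lay apart, lower in Kit+J. Over the family 8 of 44 genes lay fully apart and lower and 1 higher, beside 20% of all genes in either direction. Both Kit-J arrays carry a description line that names Kit+ cells. Kit+D against Kit-D called 8 of 44 genes (18.2%), 1 higher and 7 lower, against 13.1% of all genes in either direction, 6.5% higher and 6.62% lower. Lower in Kit+D were Mmp2 (-2.50 ± 0.25), Adamts9 (-2.24 ± 0.26), Adamts1 (-2.23 ± 0.20), Timp3 (-1.82 ± 0.32), Mmp14 (-1.55 ± 0.30), Mmp16 (-1.02 ± 0.24) and Mmp28 (-0.82 ± 0.16), with limma adjusted p from 1.68e-05 for Adamts1 to 0.0116 for Mmp16.

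Each of these 7 genes was also lower in fresh Kit+ than in fresh Kit- cells. On the Kit+D arrays Mmp2 read 5.89, 6.07 and 7.02, and the third array lay nearer to Kit-D than the others. Mmp16 read 4.50, 4.76 and 3.90, and Mmp28 4.79, 4.54 and 4.67. The family's median was -0.26, beside 0.05 over all genes. All 12 endothelial markers were called lower (median -2.04), 4 of 16 stromal markers were called lower (median -0.89) and 7 of 12 germ cell markers higher (median 1.77), and their part was not tested. Kit-D and Kit+D arrays of one number deviated together, and with the number as a block on the OP9-Dll4 arrays alone, an alternative chosen after seeing the data, 7 of the 8 calls held and that of Timp4 was lost (limma adjusted p = 0.107). Mmp16 lost its call without Kit-D replicate 1 (0.0506) or 2 (0.0537).

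Timp1, Timp2 and Adamts5 followed another pattern, in which single arrays stood out. Timp1 encodes a secreted inhibitor of most MMPs. It read 5.03, 6.60 and 5.27 in Kit-, 4.97, 4.71 and 5.24 in Kit+, 5.36 and 5.88 in Kit-J, and 5.88, 6.16 and 5.99 in Kit+J. The Kit-D arrays read 6.01, 6.87 and 8.06 and the Kit+D arrays 4.73, 6.79 and 7.59, with the third replicate highest in both groups. Timp2 read 5.39, 5.13 and 6.20 in Kit- and 5.29, 4.73 and 5.09 in Kit+. It read 4.87, 4.84 and 4.26 in Kit+J and 6.05, 5.15 and 6.65 in Kit+D. Again the third replicate was highest in Kit+D, as it was in Kit-D. Adamts5, an aggrecan- and versican-cleaving protease encoded beside Adamts1 on chromosome 16, read 5.21, 5.01 and 7.10 on the Kit-D arrays and 3.89, 4.51 and 5.34 on the Kit+D arrays. Elsewhere it ran from 3.84 to 5.07, mostly under the dim reference.

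Timp1 was called in no comparison, and its largest difference between the groups compared, 1.40 ± 0.62 in Kit+D against Kit+, had a limma adjusted p of 0.268. Adamts5 was called in none either (Kit-J against Kit-D -1.52 ± 0.51, limma adjusted p = 0.0714). Some of the 16 stromal markers were high on the same arrays, and others were not. On Kit-D replicate 3, 8 of them lay above all Kit- arrays and 5 below, and on Kit+D replicate 3, 12 lay above all Kit+ arrays and 1 below. In Kit-D against Kit- none was called (median 0.03). Matrix Gla protein (Mgp) read 10.55 on Kit-D replicate 3 and 9.75 on Kit+D replicate 3, against 4.52 to 6.82 on the other arrays. Smooth muscle actin (Acta2) read 9.92 and 9.38 on these arrays and no more than 7.69 elsewhere. Lumican (Lum), by contrast, read 2.99 and 3.47 there, against 4.13 to 6.41 in Kit-, and decorin 4.43 and 4.24, against 5.97 to 6.54. The mean of all 16 stromal markers was 6.92 on Kit-D replicate 3, above the 5.96 to 6.32 of the Kit- arrays, and 6.28 on Kit+D replicate 3, within that range. The blood marker Ptprc read 8.12 to 9.20 in Kit-. Its Kit-D arrays gave 8.59, 4.46 and 4.16, while those of Kit+D gave 8.99, 5.54 and 4.64, so that it was low on the second replicates too. For the mean of 16 myeloid markers the Kit-D arrays gave 7.08, 5.01 and 4.97, and the Kit+D arrays gave 8.18, 5.43 and 4.65. Their part in the signals of Timp1, Timp2 and Adamts5 was not tested.

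**Figure D4:**
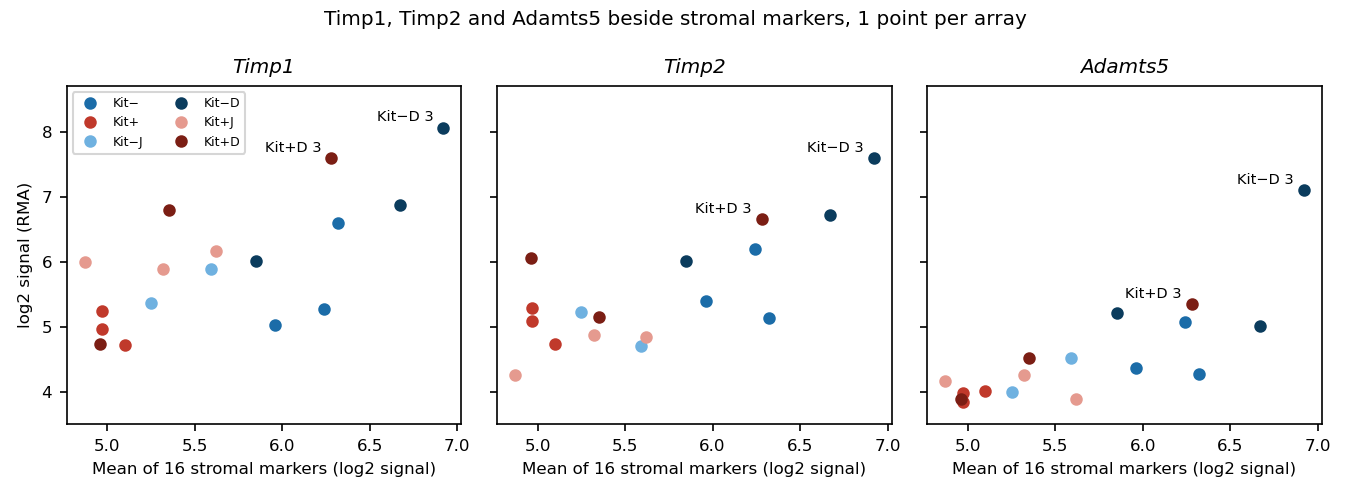
Each point is 1 array, with the mean log2 signal of 16 stromal markers on the x axis and the log2 signal of Timp1, Timp2 or Adamts5 on the y axis, coloured by group. Kit-D replicate 3, at 6.92 on the x axis, is highest in all 3 panels; points share culture and sort, and no test was made.

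Adamts3, whose product removes the N-terminal propeptide of fibrillar collagen, was read from a probe set with wide spread, which its other probe sets shared in part. Its brightest probe set read 11.12 on Kit-J replicate 1 and 5.81 on replicate 2. On the Kit-D arrays it read 7.72, 6.72 and 6.88, and on the Kit+D arrays 7.32, 8.47 and 4.26. In Kit- it read 5.17, 4.88 and 5.26, in Kit+ 5.84, 6.29 and 4.20, and in Kit+J 4.25, 4.50 and 5.55. The spread was wide within Kit-J and Kit+D, and in the fit over all arrays no comparison called the gene (Kit-J against Kit- 3.36 ± 1.26, limma adjusted p = 0.243). On this probe set all Kit-D arrays lay above all Kit- arrays, by 2.01 on average, and a fit on those groups alone called the gene. The other 15 probe sets did not share that size, with Kit-D minus Kit- from -0.23 to 0.70. The other 15 probe sets of Adamts3 ran from 3.11 to 6.41 on Kit-J replicate 1, and 2 of them were also highest on that array, by smaller margins (6.41 against at most 5.97 elsewhere, and 4.89 against 4.67). On Kit+D replicate 3, 13 of the 15 lay below the other Kit+D arrays, as the brightest did. Over all 16, the group difference was above 0 in 15 for Kit-J minus Kit- (-0.10 to 3.36) and below 0 in 15 for Kit+J minus Kit+D (-1.91 to 0.02). Such shared signs were not particular to these comparisons. For Kit+J minus Kit+ all 16 lay below 0 (-0.68 to -0.03), and for Kit+ minus Kit- 14 lay above 0. For Kit+D minus Kit-D 13 lay above 0 (-0.43 to 1.06), while the brightest gave -0.43. All 6 probe sets of Adamts9 were lower in Kit+ than in Kit- (-3.10 to -1.21) and lower in Kit-J relative to Kit- (-3.07 to -0.90). Relative to Kit-D all 6 were lower in Kit-J too (-3.90 to -0.82). In Kit-D relative to Kit- 5 were higher and 1 lower (-0.07 to 1.36).

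**Figure D5:**
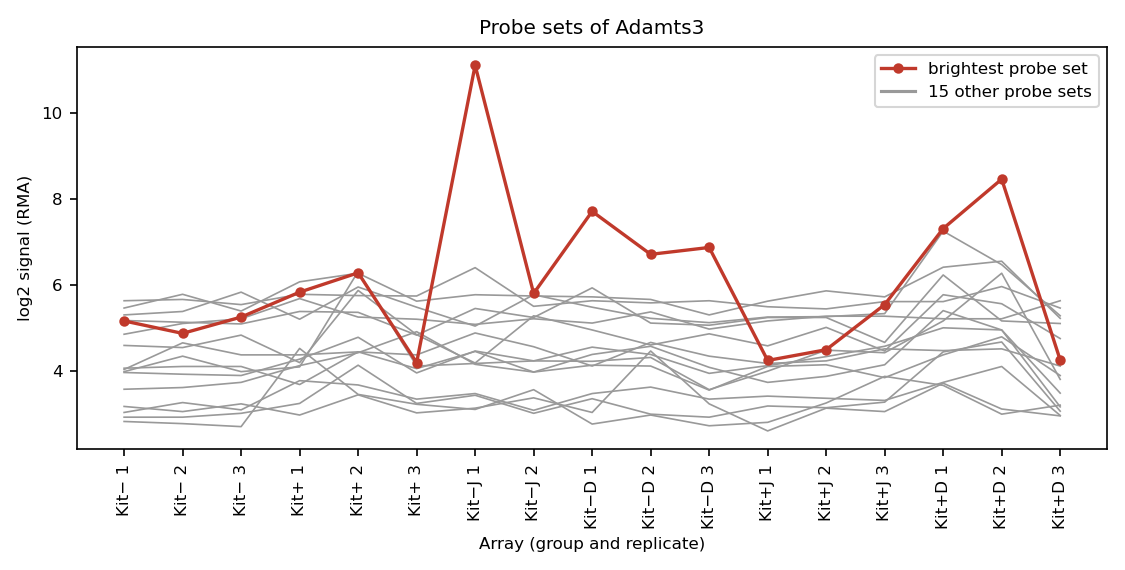
Log2 signal of the 16 probe sets of Adamts3 on the 17 arrays, with a line joining the values of 1 probe set and red for the brightest. The red line reaches 11.12 on Kit-J replicate 1, where the highest of the 15 others is 6.41, and 2 of those others also have their highest value there.

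On chromosome 9 (GRCm38.p6), 10 MMP genes lie within 427.1 kb, from 7272514 to 7699585: Mmp13, Mmp12, Mmp1b, Mmp3, Mmp1a, Mmp10, Mmp8, Mmp27, Mmp20 and Mmp7. They include the interstitial collagenases and the stromelysins Mmp3 and Mmp10. None had a mean at the dim reference, 7 were below it on all arrays, and single values ran from 2.57 to 5.62. Mmp7 (matrilysin) came closest, at or above the reference on 9 of the 17 arrays, with group means of 5.12 in Kit+, 5.17 in Kit-J and 5.13 in Kit+J and of 4.81 to 4.98 in the other groups. Mmp3 (stromelysin 1) read 4.16, 3.79 and 3.85 in Kit-, 3.85, 3.93 and 3.81 in Kit+, and 4.31 and 4.09 in Kit-J. It read 3.54, 3.56 and 3.68 in Kit-D, 3.85, 4.08 and 3.93 in Kit+J, and 3.25, 3.22 and 3.40 in Kit+D, so that both OP9-Dll4 groups lay lowest. Mmp13 (collagenase 3) read 4.81 and 4.27 in Kit-J, 4.15, 4.25 and 3.89 in Kit+J and 4.14, 3.69 and 3.85 in Kit+D, and from 3.60 to 3.95 on all other arrays.

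Of the calls on these dim genes, Mmp13 was higher in Kit-J by 0.76 ± 0.18 relative to Kit- (limma adjusted p = 0.039) and by 0.66 ± 0.18 relative to Kit-D (0.0341). Mmp3 was higher in Kit-J by 0.60 ± 0.15 relative to Kit-D (0.0204). Without Kit-J replicate 1 these p values were 0.482, 0.407 and 0.212. The calls also failed without single arrays of other groups: Mmp13 in Kit-J against Kit- without any of 11 arrays, with a limma adjusted p from 0.05 to 0.482, and against Kit-D without Kit-D replicate 1 (0.0838), 2 (0.0784) or 3 (0.0723). Mmp3 failed against Kit-D without Kit-D replicate 1 (0.0551) or 2 (0.0598), and in Kit+D against Kit+ without any of 12 arrays (0.0517 to 0.16). Timp4, a TIMP of heart and brain, read 4.43, 4.17 and 4.68 on the Kit+D arrays and 3.66, 3.89 and 3.87 on the Kit-D arrays, and from 4.01 to 4.27 in the other groups. Its call in Kit+D against Kit-D (0.62 ± 0.14, limma adjusted p = 0.00885) was lost in the paired fit of the OP9-Dll4 arrays (0.107). It was also lost with housekeeping scaling (0.125) and on the compared groups alone (0.0848). With replicates 1 and 3 of Kit+D and replicate 3 of Kit-D left out together, which keeps 1 Kit+D array, the difference was 0.39 and not called.

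The remaining 30 genes were neither called nor spanned 1 log2 unit between group means. Their spans ran from 0.23 to 0.78 and their means from 2.78 to 7.42, and 11 of them reached the dim reference. Among MMPs these were Mmp11, Mmp19, Mmp23 and Mmp24, and among ADAMTS genes Adamts4, Adamts7, Adamts10, Adamts12, Adamts14, Adamts15 and Adamts17. Adamts17 had the highest mean of them, 7.42, and ran from 6.31 to 7.82. Its 5 probe sets did not share a direction between Kit+ and Kit-. Under the dim reference lay the gelatinase Mmp9, at 4.28 to 5.40, the membrane-type Mmp17 and Mmp25, the other MMPs Mmp21, Mmp12, Mmp20 and Mmp27, and Mmp7, Mmp10, Mmp1a, Mmp1b and Mmp8. Mmp9, the gelatinase of many white blood cells, was called in no comparison, unlike Mmp2. The dim ADAMTS genes were Adamts6, Adamts8, Adamts13, Adamts16, Adamts18, Adamts19 and Adamts20. Adamts13, which cuts von Willebrand factor, ran from 4.47 to 5.55.

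Genes that act with these enzymes were followed on a list of inhibitors, activators, related proteases and substrates, of which 46 of 48 were measured. In Kit+ against Kit- 8 of 46 were called lower and none higher (median -0.22), against 2.67% of all genes lower and 0.562% higher. Versican (Vcan), the proteoglycan that ADAMTS1 and ADAMTS9 cut, read 8.01 to 8.60 in Kit- and 3.62 to 5.18 in Kit+ (-3.70 ± 0.55, limma adjusted p = 0.000855). Its Kit+ mean, 4.54, lay under the dim reference, so the size of the fall is uncertain. Reck, a membrane-anchored MMP inhibitor, was 1.24 lower on the log2 scale than in Kit-, in which it read 6.80, 6.32 and 7.31, with 5.82, 5.41 and 5.48 in Kit+ (limma adjusted p = 0.00483). The procollagen C-proteinase Bmp1 (-1.19 ± 0.19), Adam12 (-1.94 ± 0.32), the collagen chaperone Serpinh1 (-1.75 ± 0.34) and decorin (Dcn, -1.67 ± 0.37) were lower as well.

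In Kit-J against Kit- 3 of 46 were called, all lower, against 1.89% of all genes lower and 0.251% higher. These were Reck, at 4.89 and 5.13 (-1.80 ± 0.25, limma adjusted p = 0.00142), Adam12 (-1.48 ± 0.36) and Bmp1 (-0.90 ± 0.22). Kit-D against Kit- and Kit+J against Kit+ called none of the 46 with limma, against 0.171% and 0.0201% of all genes. Kit+D against Kit+ called 1, Itgav, the alpha chain of the vitronectin receptor (0.97 ± 0.23), against 1.42% of all genes. Kit-J against Kit-D called 1 higher, A2m (0.60 ± 0.13), and 7 lower, against 3.3% of all genes higher and 6.07% lower. Among the 7 lower genes Tll1, a relative of Bmp1, read 4.50 and 4.35 in Kit-J and 6.35, 6.54 and 7.48 in Kit-D (-2.36 ± 0.29, limma adjusted p = 0.000185), the Kit-J values again under the dim reference. Reck read 6.74, 7.31 and 6.77 in Kit-D and differed by -1.93 ± 0.25 (limma adjusted p = 0.000325), and the secreted serine protease Htra1 by -1.46 ± 0.23.

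Kit+D against Kit-D called 10 of 46, all lower, against 6.62% of all genes lower and 6.5% higher. The calls were led by Tll1 (-2.50 ± 0.26), Htra1 (-1.61 ± 0.21), Adam12 (-2.02 ± 0.32), Reck (-1.15 ± 0.23), tissue plasminogen activator (Plat, -1.30 ± 0.28) and cathepsin K (Ctsk, -0.76 ± 0.18). In the difference of ligand effects 3 of 46 were called, all negative, against 1.98% of all genes in either direction. These were Tll1 (-2.31 ± 0.39, limma adjusted p = 0.0121), Htra1 (-1.70 ± 0.31, 0.0158) and Reck (-1.43 ± 0.34, 0.0479). On the Kit+J and Kit+D arrays Tll1 read 3.85 to 4.57 and Htra1 3.97 to 4.79, all under the dim reference. A ligand difference in Kit+ cells could hardly show there, so dependence on the Kit gate is uncertain for Tll1 and Htra1. The protease inhibitor Reck thus stood low in Kit+ and Kit-J and high in Kit- and Kit-D, as Timp3 did. Kit+J against Kit-J and Kit+J against Kit+D called none of the 46 with limma, against 0.0903% and 2.25% of all genes.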

How the data were processed

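Total RNA of 17 sorted samples was amplified and hybridised to Affymetrix mouse gene arrays. The deposited values are log2 signals that the authors made with RMA, per the submitters' processing notes, whose version is not given in the sources used here. They ran from 1.24 to 13.58 with a median of 5.29. The scanner intensities were not used here, so background correction and scan batches were not tried.

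Of 34760 probe sets 21640 had 1 gene symbol in the platform annotation, 1321 several and 11799 none. By Entrez number 21553 of the first matched RefSeq, with 0 symbols changed. Each of 19937 genes was read from its brightest probe set. Group means were fitted over all 17 arrays with limma 3.58.1 in R 4.3.3, moderated variances, and p values adjusted by Benjamini-Hochberg across the whole table, since the study's methods name no test. Errors are SE of the log2 fold change, or SD where n is given. In simulated data for Kit-J against Kit-, 47 of 100 genes changed by 1 log2 unit and 91 of 100 changed by 2 were called, with 6 unchanged genes called. The simulation used independent normal noise, with the same SD for a gene in all groups. Arrays that deviate together and spreads that differ between groups were not simulated, so these counts may not hold for the real arrays. Precision is limited by 2 or 3 arrays per group.

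Family members, role groups, marker lists and partner lists were chosen with earlier results of these data known. Values on each array are given for members called in any comparison or with group means at least 1 log2 unit apart, and partners are named where called, up to 6 a comparison by adjusted p. Replicate numbers were checked by the correlation of array deviations from group means. Arrays of one number in the OP9-Dll4 groups correlated at 0.179 to 0.462 and were taken as paired. In other pairs of groups, arrays of one number ran from -0.263 to 0.065. Arrays of different number ran from -0.38 to 0.134 in the OP9-Dll4 groups and reached 0.263 between Kit-J and Kit+J, so the pairing is not certain. The largest share of identical values on 2 arrays was 1.33%. Alternatives were the compared groups alone, a variance trend with robust prior, leaving out dim genes, housekeeping scaling, repeated quantile normalization, the mean of probe sets, array weights, a replicate block, leaving out replicates 1 and 3 of Kit+D with replicate 3 of Kit-D, and leaving out each array. Figures were drawn with matplotlib 3.10.9 in Python 3.11.15.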

Additional observations from a re-analysis of the deposited data

Results flagged for a closer look

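For 3 genes a direct limma test called the difference between the Kit gates, Kit-J minus Kit-D less Kit+J minus Kit+D. The call held in 25 of 26 alternatives for Mmp2, 20 of 26 for Adamts9 and 23 of 26 for Adamts1. The value was -2.30 for Mmp2, -1.92 for Adamts9 and -1.83 for Adamts1 on the log2 scale. In Kit- cells both Kit-J arrays lay below all 3 Kit-D arrays for each gene, and in Kit+ cells the ligand differences were -0.33, -0.29 and -0.75. With 2 or 3 arrays in a group, no formal test for an outlying array was made.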

How the results depend on the processing

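Of 39 calls on family members 18, on 7 genes, held in all alternatives, and 0 values changed sign. Fitted on the compared groups alone, the number of members called was 4 for Kit-J with Kit-, 2 for Kit-D with Kit- (Adamts3 in addition), 0 in Kit+D against Kit+, 5 in Kit-J against Kit-D, 0 in Kit+J against Kit+D, 5 in Kit+D against Kit-D and 1 in the difference of ligand effects. These fits have fewer arrays for the spread. Housekeeping scaling, on the 6 of 8 genes measured, gave 0 in Kit-D against Kit-, 1 in Kit+J against Kit+D and 1 in the difference of ligand effects. It moved the median of all genes by -0.154 in Kit+ against Kit-, 0.13 in Kit+D against Kit+, -0.11 in Kit+J against Kit+D and -0.108 in Kit+J against Kit-J, and by less than 0.1 elsewhere. In Kit+J against Kit+D, 1 member was called without dim genes, since Mmp3 was then not tested, and 1 with array weights. When replicates 1 and 3 of Kit+D and replicate 3 of Kit-D were left out, Kit+D kept 1 array, replicate 2, with no spread of its own. Adamts1 then stood at 1.12 in Kit-D against Kit-. Mmp14 and Timp3 stood at 1.33 and 1.23 in Kit+D against Kit+, and Timp3 at -1.43 in Kit+J against Kit+D. These calls were lost. Apart from the removal of dim genes, the cause of these changes was not tested.

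With the replicate number as a block, 28 of the 39 calls held: members called were 1 in Kit+J against Kit+D, 0 in Kit-D against Kit- and 0 in Kit+D against Kit+, and the other counts stayed within 1.5 times. Only Kit-D and Kit+D were taken as paired, and on the OP9-Dll4 arrays alone, an alternative chosen after seeing the data, the block left 7 of 8 calls, without Timp4.

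With each array left out, members called ran from 6 to 7 for Kit+ with Kit-, 3 to 8 for Kit-J with Kit-, 0 to 1 in Kit-D against Kit-, 0 to 0 in Kit+J against Kit+, 0 to 5 in Kit+D against Kit+, 5 to 9 in Kit-J against Kit-D, 0 to 3 in Kit+J against Kit+D, 0 to 1 in Kit+J against Kit-J, 7 to 10 in Kit+D against Kit-D and 2 to 4 in the difference of ligand effects. Where Kit-J keeps 1 array, it is assumed to vary like the other groups. Signals under the dim reference limit 24 of 44 members.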
